A study of Mus musculus with 8 samples.

Results

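Genes of fatty acid oxidation and of the PPAR alpha program were followed in liver RNA of mice given furan. The 41 members were a list of mouse symbols covering fatty acid uptake and activation, omega oxidation, the carnitine shuttle, mitochondrial and peroxisomal beta oxidation, acyl-CoA thioesterases and a few further PPAR alpha targets, and each was read from its brightest probe. All 41 were measured, among 24921 genes or transcripts tested on the arrays, and each member's probe was well above background on all 8 arrays. The arrays held liver RNA of female B6C3F1 mice, bought at an age of 5 to 6 weeks. The 4 vehicle samples, numbered 2, 3, 4 and 6, came from mice gavaged with corn oil, the solvent that both groups received. The 4 furan samples, numbered 41, 42, 43 and 44, came from mice gavaged with furan in corn oil at 8 mg per kg body weight. Dosing lasted 21 days, and tissue was taken 4 hours after the last dose and snap frozen. Furan is a small volatile ring compound that forms in heated food and injures rodent liver. The labels do not state that each numbered sample is a separate mouse, so the p-values measure the spread between these samples. In whole liver, fewer cells of a type and less RNA per cell cannot be told apart.

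PPAR alpha is a nuclear receptor of hepatocytes that is activated by fatty acids and by fibrate drugs. It binds DNA together with the retinoid X receptor, at paired copies of a short sequence with a single base between them, and switches on genes of fatty acid breakdown during fasting. Long-chain fatty acids enter the cell, are joined to coenzyme A, and cross into mitochondria on carnitine, where beta oxidation shortens them and feeds ketone body synthesis. Very long and branched chains are shortened in peroxisomes. Omega oxidation by Cyp4a enzymes of the endoplasmic reticulum turns the far end of the chain into an acid. The Cyp4a, peroxisomal and Acot genes are the classic strong responders to PPAR alpha activators in rodent liver.

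The direct repeat AGGTCANAGGTCA, the consensus form of that site, was searched on both strands of the window from 250 bases before to 50 bases after each start site, in RefSeq sequences of GRCm38.p6 that matched 33 of the 41 members. No window was found for Acaa2, Cyp4a10, Vnn1, Cyp4a14, Decr1, Angptl4, Hsd17b4 and Cyp4a31. An exact match was present for 0 of the 33 members and for 13 of 27025 genes, 0.0481%. With 1 mismatch allowed the motif was present for Fabp1 alone among the 33, and for 174 of all genes, 0.644%. With 2 mismatches allowed it was present for 5 of the 33, 15.2%, against 4.4% of all genes, the 5 being Cd36, Fabp1, Slc25a20, Etfa and Acot4. A match is a description of letters, and no match says only that these letters are not in the window. The 250 bases before the start are shown for Fabp1, the member with the closest match, at chr6:71199629-71199878 on the plus strand, with the match in capitals. The match lies 67 to 55 bases before the start on the opposite strand and differs from the motif by T4C, counted from the 5′ end of the motif. The same stretch is shown for Acsl4, the member whose change passed the test, at chrX:142390536-142390785 on the minus strand, which held no match within 2 mismatches.
Fabp1: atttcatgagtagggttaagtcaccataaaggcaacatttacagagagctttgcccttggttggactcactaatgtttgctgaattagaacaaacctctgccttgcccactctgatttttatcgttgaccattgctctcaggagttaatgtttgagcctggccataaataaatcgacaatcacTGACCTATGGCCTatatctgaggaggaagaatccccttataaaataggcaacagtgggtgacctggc
Acsl4: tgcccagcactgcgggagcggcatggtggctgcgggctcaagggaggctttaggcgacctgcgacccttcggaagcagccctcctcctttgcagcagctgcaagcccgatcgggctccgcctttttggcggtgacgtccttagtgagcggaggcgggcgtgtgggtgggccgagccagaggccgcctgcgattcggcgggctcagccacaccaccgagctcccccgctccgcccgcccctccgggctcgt

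A level below is the log2 signal of a gene minus the 75th percentile of that array, and a change is the furan mean minus the vehicle mean. The question was whether these genes differed after 3 weeks of furan. Of the 41 members, 1 rose and 0 fell at a limma adjusted p of 0.05, where 4.18% of all features passed, 2.87% higher and 1.31% lower. The gene that rose was Acsl4. An unadjusted p under 0.05 was reached by 8 members, Acsl4 and Cd36 higher and Acsl1, Bdh1, Acaa1a, Acaa1b, Decr2 and Acot1 lower, and by 23.8% of all features. The groups did not overlap for 6 members, Acsl4, Cd36 and Etfa higher and Bdh1, Acaa1b and Decr2 lower, against 18.2% of all features, 10.8% higher and 7.36% lower. Both shares are near those of the whole array. The median log2 change of the members was -0.0012, with 20 above and 21 below 0, beside -0.09 over all features. The split was 38 above and 3 below with a median shift, 26 and 15 with no shift, and 15 and 26 with quantile normalization. The changes ran from -0.76 for Acot1 to 1.1 for Pdk4. The 95% interval of the change stayed within 2-fold in either direction for 35 members and within 1.5-fold for 24, so for these a larger change lies outside the interval. For the 6 others, Acsl4 among them, the interval reached 2-fold, and a p that misses the threshold there does not show that the level was the same.

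**Figure D1:**
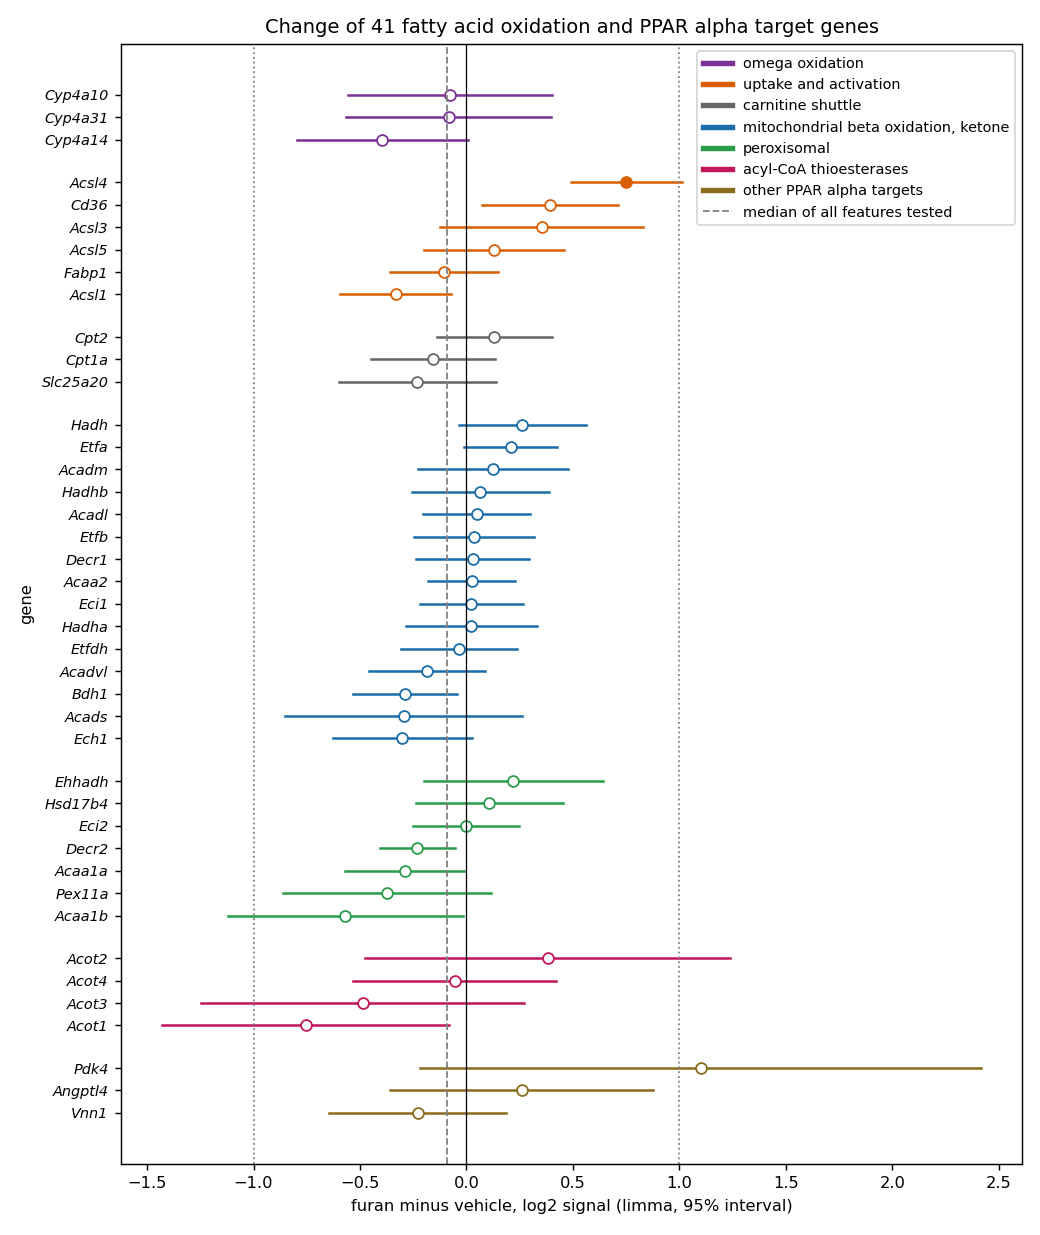
Change of each of the 41 members on the horizontal axis (furan minus vehicle, log2 signal), with its 95% interval from limma, grouped by step of the pathway. The filled point, Acsl4, passed an adjusted p of 0.05; the dotted lines mark 2-fold, and the dashed line marks the median of all features at -0.09.

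Uptake and activation held the member that rose. Acsl4 encodes an acyl-CoA synthetase that prefers arachidonic acid and other polyunsaturated fatty acids. Its level was 3.28, 3.14, 3.13 and 3.38 on the vehicle arrays 2, 3, 4 and 6, and 3.99, 3.82, 4.21 and 3.92 on the furan arrays 41, 42, 43 and 44. Each furan array was above each vehicle array. The mean went from 3.23 ± 0.12 (SD, n = 4) to 3.98 ± 0.16, a change of 0.75 ± 0.11 (SE, limma adjusted p = 0.0167), or 1.68-fold. Its 95% interval ran from 0.49 to 1.01, and 1 probe of Acsl4 passed the filter. The change was 0.69 in the authors' deposited value table (adjusted p = 0.0098) and 0.68 with normexp correction (adjusted p = 0.00951). The call was lost without vehicle replicate 4 (0.0527) and without furan replicates 41 (0.0581), 43 (0.0513) or 44 (0.0513), while the change stayed between 0.68 and 0.77 in those fits. It was also lost with the slide column as a block (0.137), where limma called 0 of all 24921 features, and within each of the 4 columns, which hold 1 array of each group, Acsl4 was higher with furan by 0.45 to 1.07.

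Cd36 encodes the scavenger receptor that takes up long-chain fatty acids. Its vehicle levels were -0.85, -0.59, -0.36 and -0.44, and its furan levels 0.08, -0.30, -0.21 and -0.26. The groups did not overlap, with furan 41 highest and vehicle 2 lowest. The change of 0.39 ± 0.14 had an adjusted p of 0.146 and did not pass. The other members of the step ran from -0.33 to 0.35. Acsl3, the synthetase of lipid droplets, had a change of 0.35, and Acsl5 one of 0.13. Fabp1, the abundant liver fatty acid binding protein whose promoter held the closest motif match, had a change of -0.11 with an interval from -0.36 to 0.15. Acsl1, the main hepatic synthetase feeding oxidation, had a change of -0.33 (adjusted p = 0.132). Among the 4 synthetase genes, then, Acsl4 rose and the change of Acsl1 had the opposite sign, though the difference between both genes was not tested.

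Omega oxidation showed no member past the threshold. The Cyp4a enzymes hydroxylate the terminal carbon of fatty acids. Cyp4a10 levels were 7.70, 7.97, 7.92 and 7.52 with vehicle and 8.04, 7.73, 7.14 and 7.90 with furan. The highest and the lowest of the 8 values, furan 41 and furan 43, both came from the furan group. The change was -0.08 ± 0.21 (adjusted p = 0.819), with a 95% interval from -0.56 to 0.40. Cyp4a14 levels were 7.51, 7.53, 7.57 and 7.45 with vehicle and 7.35, 6.71, 6.92 and 7.49 with furan. The vehicle arrays lay within 0.12 of each other and the furan arrays spread over 0.77, with furan 44 inside the vehicle range. The change was -0.39 ± 0.17 (adjusted p = 0.215). Cyp4a31 levels were 7.48, 7.72, 7.66 and 7.22 with vehicle and 7.75, 7.44, 6.89 and 7.66 with furan, a change of -0.08 ± 0.21 (adjusted p = 0.806). Its order of arrays was close to that of Cyp4a10. The difference between the Cyp4a10 and Cyp4a31 signals stayed between 0.22 and 0.30 on the 8 arrays, with an SD of 0.026, the smallest of the 820 pairs of members. Cyp4a14, Cyp4a10, Cyp4a31 and Cyp4a32 are neighbouring genes of 1 cluster, and the signals of Cyp4a10 and Cyp4a31 cannot be told apart here. For Cyp4a10 and Cyp4a14 the SD of the difference was 0.30.

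**Figure D2:**
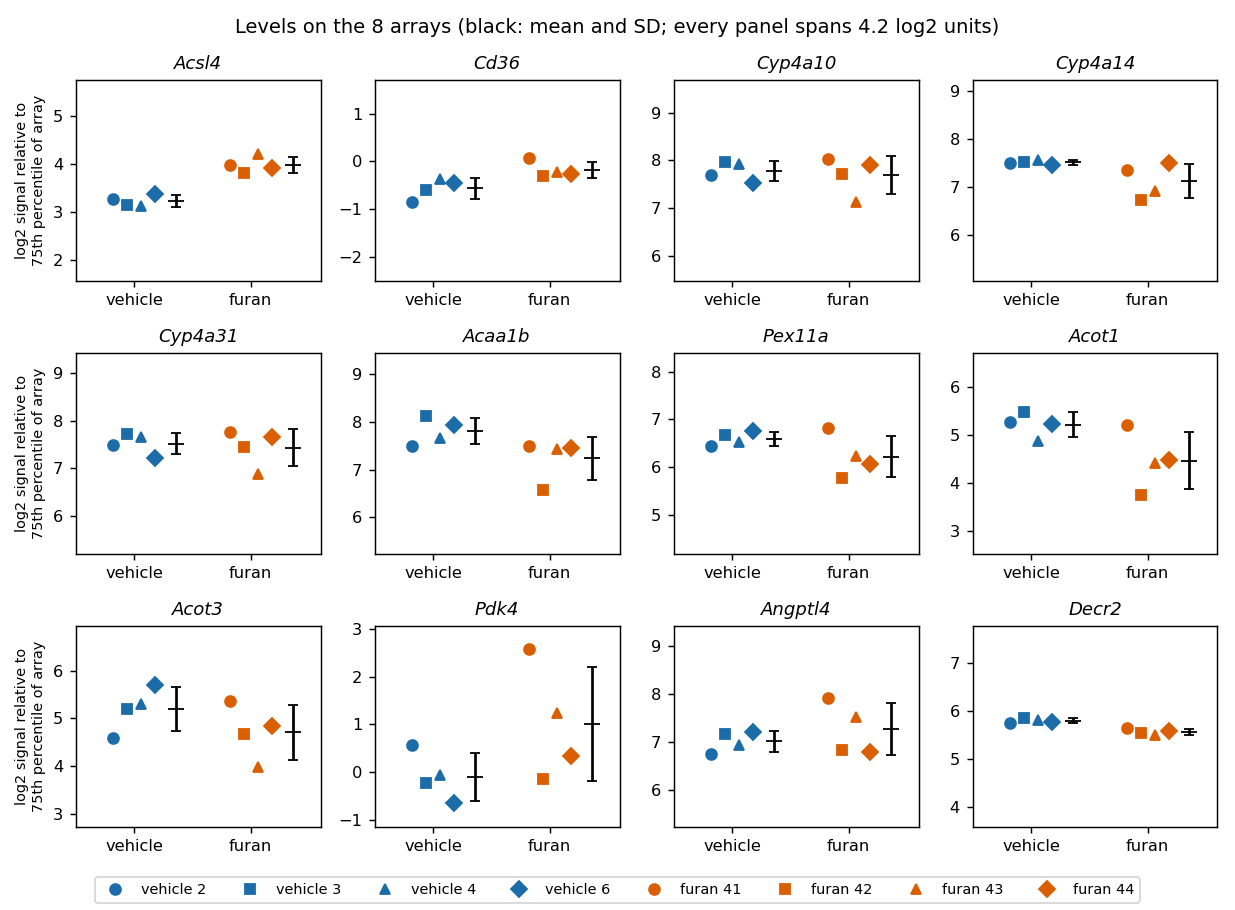
Level of 12 members on each array (vertical axis, log2 signal relative to the 75th percentile of the array; each panel spans 4.2 log2 units), with vehicle in blue, furan in orange, and the mean and SD of 4 arrays in black. The groups do not overlap for Acsl4, Cd36, Acaa1b and Decr2, though those of Acaa1b nearly touch. They overlap for the other 8, and furan 41 or furan 42 is often the extreme of its group.

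The carnitine shuttle carries long-chain acyl groups into mitochondria, and none of its 3 members passed. Cpt1a, the outer membrane transferase that sets the rate of entry, had levels of 5.77, 6.18, 6.04 and 6.10 with vehicle and 6.10, 5.72, 5.77 and 5.89 with furan. The furan array 41 matched the vehicle arrays and the other furan arrays lay at or below most of them. The change was -0.16 ± 0.13 (adjusted p = 0.440). Slc25a20, the carnitine-acylcarnitine carrier, had levels of 2.54, 2.94, 2.78 and 2.64 with vehicle and 2.76, 2.36, 2.16 and 2.69 with furan. Furan 41 and 44 lay inside the vehicle range and furan 42 and 43 below it, for a change of -0.23 ± 0.16 (adjusted p = 0.381). Cpt2, the inner membrane transferase, had a change of 0.13.

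No member of mitochondrial beta oxidation passed, the ketone body gene Bdh1 being counted in this class. The median change of the 15 members was 0.02, with a range from -0.30 for Ech1 to 0.26 for Hadh. Ech1, counted here, and Eci2, counted with the peroxisomal genes, are found in both organelles. For all 15 the 95% interval stayed within 2-fold, and for 13 within 1.5-fold. Ech1, a dienoyl-CoA isomerase for unsaturated chains, had levels of 6.70, 6.95, 6.53 and 6.78 with vehicle and 6.51, 6.10, 6.57 and 6.56 with furan. Furan 42 was lowest, and vehicle 4 lay among the furan values. The change was -0.30 ± 0.14 (adjusted p = 0.235). Acads, the short-chain acyl-CoA dehydrogenase, had levels of 3.30, 4.46, 3.96 and 4.24 with vehicle and 3.76, 3.45, 3.78 and 3.78 with furan. Its vehicle arrays spread over 1.16 and its furan arrays over 0.33. The change was -0.29 ± 0.24 (adjusted p = 0.445).

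The other 3 chain-length dehydrogenases had changes of 0.12 for Acadm, 0.05 for Acadl and -0.19 for Acadvl. The trifunctional protein genes Hadha and Hadhb, which lie next to each other, had changes of 0.02 and 0.06, and the thiolase Acaa2 had 0.02. For the auxiliary enzymes of unsaturated chains the changes were 0.02 for Eci1 and 0.03 for Decr1. Decr1 was the only member whose kept probes differed in sign, and all kept probes agreed in sign for the other 8 members with several. The electron transfer flavoprotein genes Etfa and Etfb had changes of 0.21 and 0.04, and the dehydrogenase Etfdh that receives their electrons had -0.04. Etfa was singled out after its values were seen. Its levels were 6.85, 7.09, 7.01 and 7.05 with vehicle and 7.31, 7.28, 7.10 and 7.15 with furan. The groups only just missed overlapping, with vehicle 3 at 7.094 and furan 43 at 7.099, and the limma adjusted p was 0.223. Bdh1, likewise singled out afterwards, interconverts the ketone bodies, and its levels were 7.14, 7.39, 7.18 and 7.40 with vehicle and 7.05, 6.89, 6.89 and 7.13 with furan. Its groups were separated by less than 0.01 and its change of -0.29 ± 0.11 had an adjusted p of 0.157.

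The peroxisomal members had a median change of -0.23, and 0 of the 7 passed the adjusted threshold in either direction. Acaa1b, a peroxisomal thiolase and a strong PPAR alpha target in mice, had levels of 7.5, 8.12, 7.67 and 7.93 with vehicle and 7.49, 6.57, 7.43 and 7.46 with furan. Each furan array was below each vehicle array, but only just, with vehicle 2 at 7.500 and furan 41 at 7.486. Furan 42 stood apart from the other furan arrays. The change was -0.57 ± 0.24 (adjusted p = 0.199), or 1.48-fold lower. Pex11a, which elongates dividing peroxisomes, had levels of 6.44, 6.67, 6.52 and 6.75 with vehicle and 6.81, 5.78, 6.23 and 6.07 with furan. Furan 41 was the highest of the 8 arrays and the other furan arrays were below every vehicle array, for a change of -0.37 ± 0.21 (adjusted p = 0.307). Decr2, the peroxisomal dienoyl-CoA reductase, was singled out after its values were seen. Its levels were 5.75, 5.86, 5.81 and 5.77 with vehicle and 5.64, 5.54, 5.50 and 5.57 with furan. The spread was narrow in both groups, with SDs of 0.05 and 0.06, and the change was -0.23 ± 0.08 (adjusted p = 0.123). Acaa1a, the other thiolase, had a change of -0.29 (adjusted p = 0.198). Ehhadh and Hsd17b4, the bifunctional enzymes of the peroxisomal pathways, had changes of 0.22 and 0.11, and the isomerase Eci2 had -0.0012. The 3 members with an unadjusted p under 0.05, the thiolases and Decr2, were all lower, while the bifunctional enzymes had changes above 0.

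The acyl-CoA thioesterases release free fatty acids from coenzyme A, and 0 of the 4 passed. Acot1, the cytosolic enzyme, had levels of 5.27, 5.49, 4.87 and 5.24 with vehicle and 5.20, 3.75, 4.41 and 4.48 with furan. Furan 41 lay inside the vehicle range and the other furan arrays below it. The change was -0.76 ± 0.29 (adjusted p = 0.172), with an interval from -1.43 to -0.08. Acot3, a peroxisomal enzyme, had levels of 4.59, 5.20, 5.29 and 5.70 with vehicle and 5.35, 4.66, 3.97 and 4.84 with furan, a change of -0.49 ± 0.33 (adjusted p = 0.368). Furan 43 was the lowest of its 8 values and vehicle 6 the highest. Acot2, the mitochondrial enzyme, had a change of 0.38, with furan levels from -1.85 on array 42 to 0.08 on array 41. Acot4 had a change of -0.05. Acot2, Acot1, Acot4 and Acot3 are neighbours in 1 cluster of related genes, and how far each probe also reads its neighbours was not tested. The SD of the difference between Acot1 and Acot2 over the 8 arrays was 0.65, and that between Acot3 and Acot4 was 0.34.

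The 3 further targets of PPAR alpha also missed the threshold. Pdk4 encodes the kinase that turns off pyruvate dehydrogenase when fat is burned. Its levels were 0.57, -0.23, -0.06 and -0.65 with vehicle and 2.58, -0.14, 1.24 and 0.35 with furan. The vehicle arrays spread over 1.22 and the furan arrays over 2.72, with furan 41 highest and furan 42 and 44 within the vehicle range. The change of 1.1 ± 0.57, 2.14-fold, was the highest among the members and had an adjusted p of 0.274 and an interval from -0.22 to 2.42. Angptl4, a secreted inhibitor of lipoprotein lipase, had levels of 6.74, 7.17, 6.93 and 7.20 with vehicle and 7.93, 6.84, 7.52 and 6.8 with furan. Furan 41 and 43 were above every vehicle array and furan 42 and 44 were within the vehicle range, for a change of 0.26 ± 0.27 (adjusted p = 0.540). Vnn1, a pantetheinase of the cell surface, had a change of -0.23.

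The classes of oxidation were compared by their counts and medians. The median change was -0.08 for the 3 omega oxidation genes, 0.02 for the 15 mitochondrial genes and -0.23 for the 7 peroxisomal genes, beside -0.09 for all features. Their ranges overlapped, at -0.39 to -0.08, -0.30 to 0.26 and -0.57 to 0.22, and 0 members of any of these classes passed limma's adjusted threshold. An unadjusted p under 0.05 was reached by 0 omega, 1 mitochondrial and 3 peroxisomal genes. The mitochondrial gene was Bdh1, the ketone body enzyme, and without it the count in that class was 0. The medians of the other classes were 0.24 for uptake and activation, -0.16 for the carnitine shuttle, -0.27 for the thioesterases and 0.26 for the other targets. With the median of each array in place of the 75th percentile as the reference, the median of all features moved from -0.09 to 0.39 and every class median moved upward with it, to 0.40, 0.51 and 0.25 for the omega, mitochondrial and peroxisomal genes. The members' median minus that of all features was 0.09 under both references, but -0.11 with quantile normalization and -0.09 with normexp. The sign of a class median is therefore relative to the scaling used. Under the 75th percentile, the members' median minus that of all features was 0.01 without vehicle replicate 2, with 15 members above and 26 below 0. Leaving out each other array in turn gave 0.02 to 0.14.

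On the scanner signals, many members shared the same highest or lowest array within a group. In the furan group, array 41 was highest for 28 of 41 members (68.3%) and array 42 was lowest for 28 (68.3%), against 24.1% and 25.5% of all features. In the vehicle group, array 3 was highest for 24 members and array 2 lowest for 24, 58.5% each, against 26.0% and 35.8% of all features. These shares are descriptions, since members measured on the same array share its scaling, as do all features. They were not computed in the deposited table, where the order of the vehicle arrays differed for several members. Acadvl, Acaa2, Ech1 and Acaa1a, highest on vehicle 3 in the scanner signals, were highest on vehicle 2 there, while Acads and Hadha stayed highest on vehicle 3. The mean deviation of a class from its group mean on furan 41 was 0.29 for omega oxidation, 0.11 for the mitochondrial genes, 0.23 for the peroxisomal genes, 0.68 for the thioesterases and 0.84 for the other targets. On furan 42 the same means were -0.12, -0.14, -0.30, -0.53 and -0.58. The mitochondrial genes deviated least among these classes on furan 41, and the omega oxidation genes least on furan 42. On furan 43 the means, in the same order, were -0.44, 0.01, 0.01, -0.25 and 0.15. On furan 44 they were 0.26, 0.01, 0.06, 0.09 and -0.41, so omega oxidation and the other targets had opposite signs on both of these arrays. The range over the 4 furan arrays exceeded that over the 4 vehicle arrays for 25 members (61.0%), against 31.8% of all features. Over all features vehicle 2 was the highest vehicle array for 37.8% and the lowest for 35.8%, against 2.44% and 58.5% of the members. The share with a wider furan range among features as bright as the members was not computed. The gap between furan 41 and furan 42 ran from -0.31 for Fabp1 to 2.72 for Pdk4, and was 1.93 for Acot2, 1.45 for Acot1, 1.09 for Angptl4 and 1.04 for Pex11a. The mean level of 10 hepatocyte markers lay between 8.51 and 8.65 on the furan arrays and between 8.42 and 8.71 on the vehicle arrays.

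**Figure D3:**
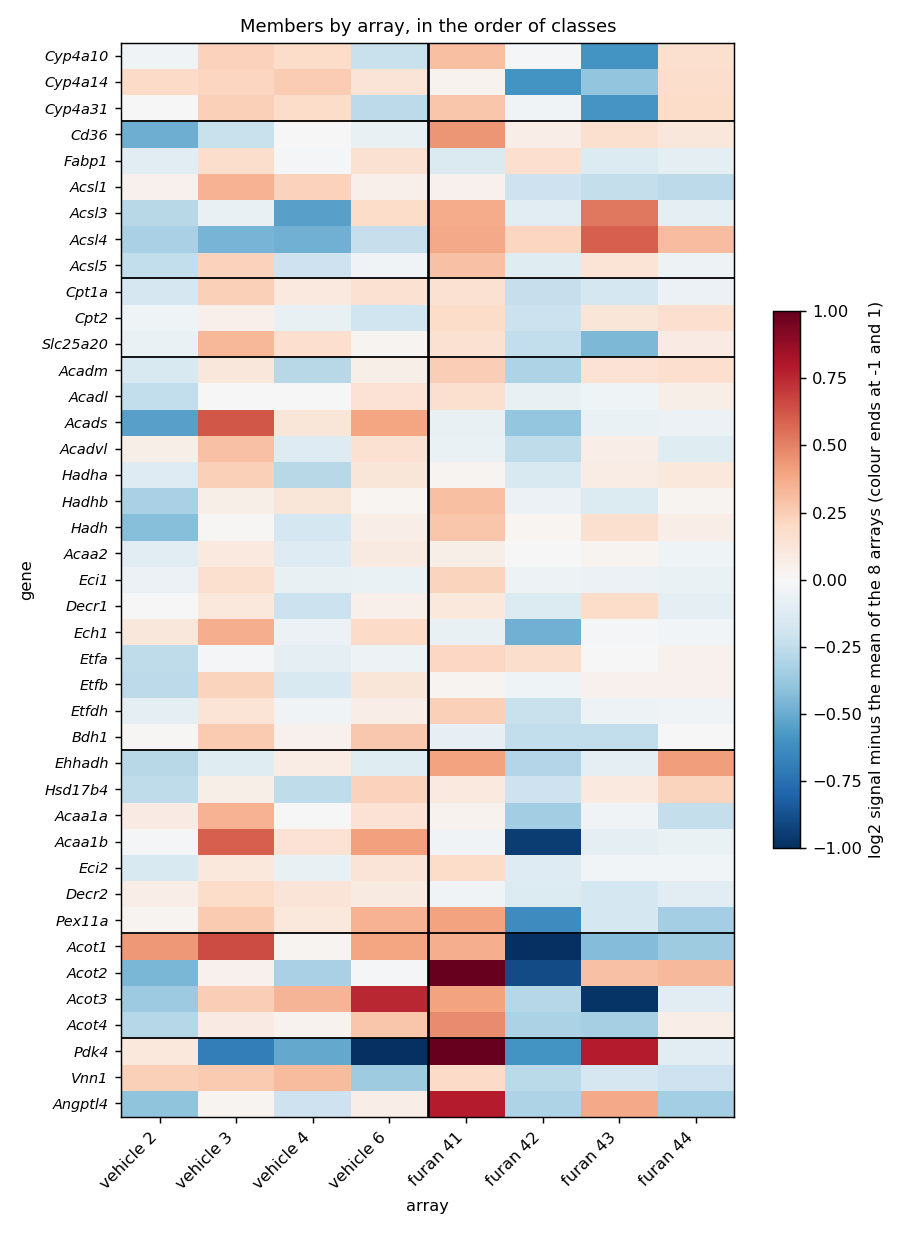
Each member's log2 signal minus its mean over the 8 arrays (colour; red above, blue below, ends at -1 and 1), with members in rows by class and arrays in columns, vehicle left of the thick line and furan right of it. The row of Acsl4 is blue on the vehicle arrays and red on the furan arrays, and the column of furan 41 is mostly red while that of furan 42 is mostly blue.

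The authors' deposited value table gave lower changes for all members except Cd36, Acsl3 and Acot2. The table is on a log2 scale, and how it was centred stays unknown. Of the 41 members, 5 passed in the authors' deposited table at an adjusted p of 0.05, where 6.69% of all features passed, 4.45% higher and 2.24% lower. Acsl4 was higher, and Acsl1, Acaa1a, Bdh1 and Acadvl, singled out for this, were lower. In the deposited value table Acsl1 had values of 16.61, 16.66, 16.73 and 16.43 with vehicle and 16.38, 16.06, 16.07 and 16.12 with furan, a change of -0.45 (adjusted p = 0.0359). Acaa1a had values of 17.26, 17.12, 17.02 and 17.06 with vehicle and 16.78, 16.60, 16.77 and 16.67 with furan there, a change of -0.41 (0.0267). The groups did not overlap for either gene in that table, whereas on the scanner signals the highest furan array of each lay within the vehicle range. Bdh1 changed by -0.42 (0.0449) and Acadvl, the very long-chain dehydrogenase, by -0.31 (0.0499). Without any 1 array the count in the deposited table ran from 1 to 4, and Acsl4 was the only member that kept its call in each of these 8 fits.

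The median change of the members was -0.11 in the deposited table, with 13 above and 28 below 0, beside 0.01 for all features. The class medians there were -0.19 for omega oxidation, -0.08 for the mitochondrial genes and -0.32 for the peroxisomal genes, so their order was that of the scanner signals. The 1275 features whose mean level was at or above the median of the members' mean levels had a median change of 0.06 in the scanner signals and -0.06 in the deposited table, so bright features moved between the processings in the same direction as the members. With normexp and quantile normalization, 1 member, Acsl4, passed, where 5.16% of all features did, 3.2% higher and 1.96% lower.

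**Figure D4:**
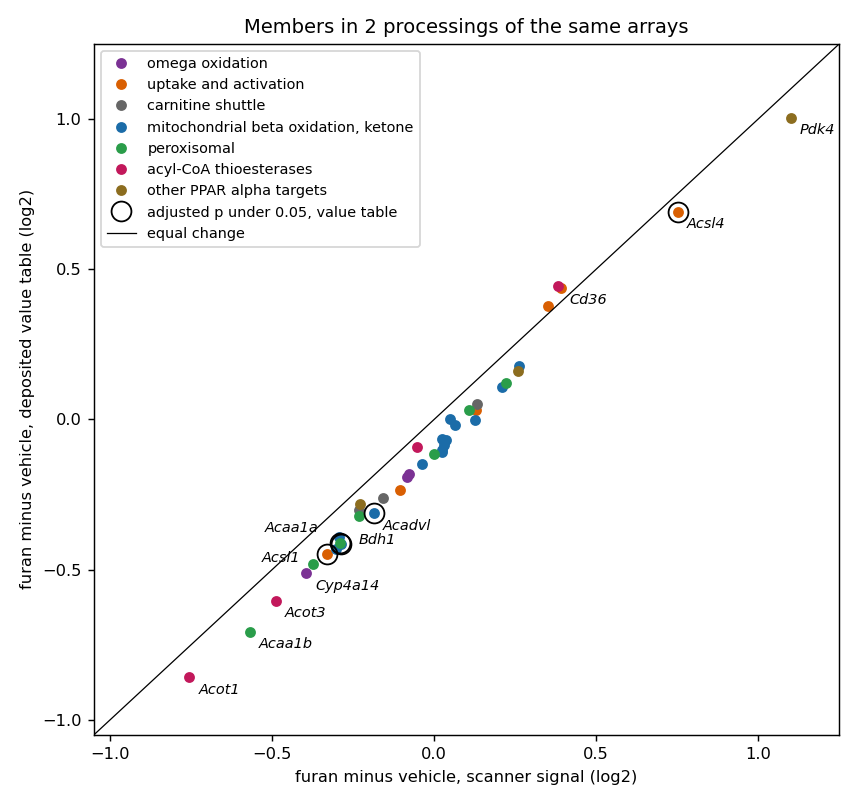
Change of each member in the scanner signals (horizontal axis, log2) against its change in the deposited value table (vertical axis, log2), coloured by class. Most points lie below the line of equal change, and the 5 ringed members passed an adjusted p of 0.05 in the deposited table.

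Of 88 further genes of fatty acid oxidation and PPAR alpha action, 85 were measured, 3 of them rose and 1 fell, where 4.18% of all features passed, 2.87% higher and 1.31% lower. Their median change was -0.09, that of all features. Hsd17b8 and Gyk had no probe matched to their symbols, and no probe of Acsl6 passed the filter. Hilpda, a lipid droplet protein that inhibits the main triglyceride lipase, had levels of -0.61, -0.52, -0.55 and -0.77 with vehicle and 0.97, 0.35, 0.69 and 0.31 with furan. The groups were far apart, and the change was 1.19 ± 0.16 (limma adjusted p = 0.0128), 2.28-fold, with 1.15 from a second probe. Fgf21, a hormone that the liver secretes in fasting and stress, had levels of -1.68, -1.63, -1.77 and -2.18 with vehicle and 1.16, -0.35, -0.16 and -0.55 with furan. Each furan array was above each vehicle array, furan 41 most, and the change was 1.84 ± 0.36 (adjusted p = 0.0354), 3.57-fold. Cidec, a lipid droplet fusion protein, had levels of -1.47, -1.01, -1.43 and -0.98 with vehicle and 1.13, -0.47, 0.56 and 0.25 with furan. Its change was 1.59 ± 0.32 (adjusted p = 0.0379), and a second, dimmer probe gave 0.52, which did not pass. Cidec is also an adipocyte marker, and the other measured adipocyte genes, Adipoq and Cfd, had changes of -1.79 and -1.0 that did not pass. Both were highest on vehicle 2, Adipoq at -1.37 against -4.32 to -3.97 on the other vehicle arrays and Cfd at -2.0 against -4.54 to -3.92. In the authors' deposited table their changes were -0.40 and -0.09, and Adipoq was well above background on only 4 arrays. Dim genes of other lists were also highest on vehicle 2 within its group. The bile duct marker Epcam was at -0.53 there against -3.56 to -3.06, and Krt7 at -0.37 against -2.63 to -2.18, while Spp1 was highest on vehicle 3. Over all features vehicle 2 was the highest vehicle array for 37.8%, and why was not tested. Lep, Plin1 and Retn had no kept probe, and the mean level of the 3 measured adipocyte genes ran from -3.28 to -1.61 with vehicle and from -3.78 to -2.38 with furan.

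Fabp2, a fatty acid binding protein best known from intestine, fell from 6.61, 6.83, 6.55 and 6.47 with vehicle to 5.90, 5.98, 6.16 and 6.23 with furan, a change of -0.55 ± 0.12 (limma adjusted p = 0.0439). The receptor gene Ppara had levels of 6.57, 6.55, 6.57 and 6.75 with vehicle and 6.76, 6.28, 6.49 and 6.28 with furan, a change of -0.16 ± 0.13 (adjusted p = 0.436). The groups overlapped, with furan 41 the highest of the 8 values. Of the 4 calls, that of Hilpda was lost only without furan replicate 43 (0.0504) when arrays were left out in turn. Fgf21 kept its call only without furan replicate 41 and Cidec only without furan replicate 42, and Fabp2 kept it in none of these fits.

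**Figure D5:**
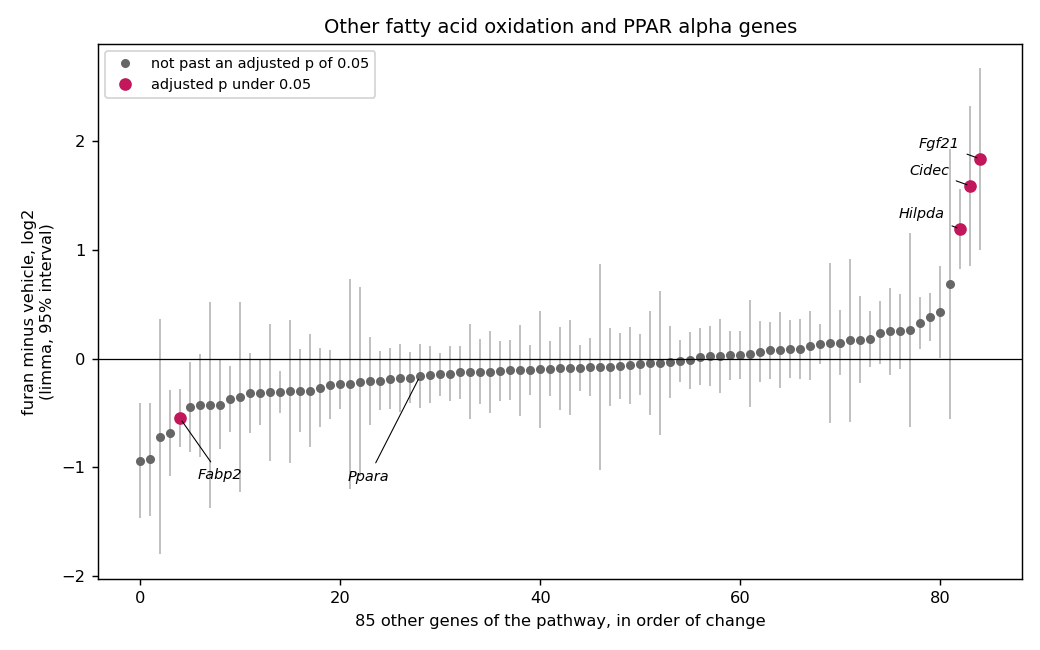
Change of 85 other genes of the pathway (vertical axis, furan minus vehicle, log2 signal, with its 95% interval from limma), in order of change on the horizontal axis. The 4 coloured points passed an adjusted p of 0.05, Hilpda, Cidec and Fgf21 higher and Fabp2 lower, and Ppara lies near the middle.

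The share of spots well above background ran from 55.1% to 86.2%, vehicle replicate 2 standing apart with the highest share, and leaving it out kept Acsl4 as the 1 member called. Precision is limited by having 4 arrays in a group. The liver label was borne out by 10 of 10 hepatocyte markers measured, with Alb at 10.33 ± 0.32 on the vehicle arrays, and 0 of the 10 passed limma's threshold, 1 having an unadjusted p under 0.05. Of 6 sinusoidal endothelial markers 0 passed and 2 had an unadjusted p under 0.05, Stab2 with a change of -0.48 and Pecam1 with -0.39. The changes of the others were -0.18 for Clec4g, -0.12 for Kdr, 0.0011 for Lyve1 and 0.05 for Cdh5. Stab2 passed in the authors' deposited table (-0.60, adjusted p = 0.0166) and with normexp (-0.60, 0.0163). The mean level of the 6 ran from 2.06 to 2.32 with vehicle and from 1.88 to 2.12 with furan. Kupffer cell markers were highest on vehicle replicate 4, with a mean level of 4.21 against 2.83 on the lowest vehicle array and 3.06 to 3.5 on the furan arrays. Whether these marker levels bear on Cd36, which macrophages and endothelium also express, was not tested.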

How the data were processed

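Liver RNA of 4 vehicle and 4 furan samples was hybridised in 1 colour to the 8 arrays of 1 slide, Agilent design 028005. Per the file headers, the scanner files hold spot intensity from Feature Extraction 11.0.1.1, as a processed signal after background subtraction and as median spot and background signals. The authors' deposited value table holds log2 values, by a method not given in the sources used here. Set against the log2 median intensity of the same array, its columns correlated across probes at 0.998 to 1.00, which settles scale and direction but not centring, and their medians were 6.53 to 6.74.

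Control spots, 3671 per array, and 128 to 315 outlier-marked spots were dropped, and saturation affected 0 spots. The 75th percentile of each array was subtracted from its log2 processed intensity, and spots of the same probe were averaged. Probes were kept if well above background on at least 4 of 8 arrays, and the kept probe with the highest mean represented its gene. Symbols came from RefSeq accessions through a table for GRCm38.p6, which matched 27235 of the 28685 probes that carry one. Probes were annotated on mm9, so no probe positions are given.

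The difference between groups was fitted in R 4.3.3 by limma 3.58.1 (lmFit, eBayes; 2-sided), and p-values were adjusted by Benjamini-Hochberg over 24921 features. The labels name a randomized block design without the blocks. The limma fit was tested on simulated data. The members, the other pathway genes, the markers and the classes were chosen with earlier results of these data known. Array-by-array values are given for members past the threshold, for the omega oxidation genes and for the 2 members with the largest absolute change in each other class. Of the other pathway genes, up to 4 past the threshold in each direction were named, with Ppara and Fgf21. Some genes of that list are not reported here. Alternatives changed the scaling (quantile, median shift, no shift), the background (normexp, offset 50, then quantile), the values (the deposited table) and the filter (none, or all 8 arrays). Others were the mean of probes, each probe, outlier-marked spots kept, eBayes with trend and robust, array weights, blocks for slide row or slide column, leaving out each array, and an adjusted p under 0.01. Leaving out arrays from the value table was added after the data were seen.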

Additional observations from a re-analysis of the deposited data

Results flagged for a closer look

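In 9 of 92 groups of 4 arrays examined, covering the members and 5 other pathway genes, 1 array lay apart from the other 3, with its gap to the nearest of them divided by the range of the group above Dixon's 95% critical value. Chance alone gives this in about 1 in 20 groups. The array was furan 42 for 5 of them. It was low for Acads (gap over range 0.955, at 3.45 against 3.76 to 3.78), Acaa1b (0.941, at 6.57 against 7.43 to 7.49), Ech1 (0.873, at 6.10 against 6.51 to 6.57) and Cpt2 (0.849, at 5.07 against 5.41 to 5.47). For Fabp1 it was high (0.847, at 9.52 against 9.21 to 9.26). Eci1, an enoyl-CoA isomerase, stood apart in both groups, on vehicle 3 (0.939, at 7.08 against 6.84 to 6.86) and on furan 41 (0.933, at 7.14 against 6.85 to 6.87). On vehicle 6, Vnn1 was low (0.884, at 1.66 against 2.26 to 2.34) and Ppara was high (0.894, at 6.75 against 6.55 to 6.57).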

How the results depend on the processing

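The call of Acsl4, the 1 member past the threshold, was kept under quantile normalization, normexp, the filter on all 8 arrays, the mean of probes, outlier-marked spots kept, trend and robust, array weights and the slide row as a block. The count of members called was 0 with a median shift, no shift, no filter on dim probes, the slide column as a block and an adjusted p under 0.01, and 5 in the deposited value table. Leaving out 1 array gave 0 to 1, and from the table of the authors the range was 1 to 4. The count of other pathway genes called, 4, became 1 with a median shift, no shift or no filter. It was 8 with normexp, the deposited table or the filter on all 8 arrays, 9 with trend and robust and 10 with array weights. It was 0 with the slide column as a block or an adjusted p under 0.01. Leaving out 1 array gave 0 to 2. Calls over all features moved as well. Of 24921 features they were 1041 in the reported fit, 86 with a median shift and 261 with no shift. They were 1285 with normexp, 1668 in the deposited table, 2001 with trend and robust and 2068 with array weights. With the filter on all 8 arrays 1733 of 21348 features were called, and with no filter 163 of 37074. With a median shift the class medians were 0.40 for omega oxidation, 0.73 for uptake and activation, 0.33 for the carnitine shuttle, 0.51 for the mitochondrial genes, 0.25 for the peroxisomal genes, 0.21 for the thioesterases and 0.74 for the other targets. With no shift the mitochondrial median was 0.15. Over all features the share of calls that were lower was 31.4% in the reported fit, 1.16% with a median shift, 11.9% with no shift and 37.7% with quantile normalization. For the 41 members and the other pathway genes named in the report, 1028 values were computed under the alternatives. Of these 54 lost a call, 4 gained one, all members in the deposited table, and no called value changed sign, while 74 values of 27 genes that were called in neither fit did. No pairing by replicate number was possible because the groups share none, and the slide column block pairs arrays by position on the slide only. Signal over background did not limit the members, whereas 4 arrays a group leave intervals that reach 2-fold for 6 of the 41.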

Other observations

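Of the 85 other pathway genes measured, 6 were higher and 7 lower without overlap of the groups, against 10.8% and 7.36% of all features. Among them, Acot5, Acacb, Acox2 and Ppargc1b had adjusted p-values from 0.0617 to 0.0658, and they are named here after their values were seen. Acacb encodes the acetyl-CoA carboxylase whose product malonyl-CoA inhibits Cpt1a. Its levels were 4.60, 4.94, 4.31 and 5.10 with vehicle and 4.22, 3.72, 3.88 and 3.37 with furan, a change of -0.94 ± 0.23 (limma adjusted p = 0.0620). In the authors' deposited value table its change was -1.03 (adjusted p = 0.015). Acot5, the next thioesterase gene beside Acot3, had levels of 0.33, 0.33, -0.17 and 0.40 with vehicle and -0.25, -1.12, -1.0 and -0.46 with furan, a change of -0.93 ± 0.23 (adjusted p = 0.0617), and -0.82 (0.0404) in the deposited table. A second, dimmer Acot5 probe gave -0.09. Acox2, a peroxisomal oxidase of branched chains, was the 1 of these genes with higher levels, at 6.54, 6.57, 6.45 and 6.45 with vehicle and 7.05, 6.79, 6.96 and 6.75 with furan. Its change was 0.39 ± 0.10 (limma adjusted p = 0.0642), with 0.37 under normexp (0.0438) and 0.29 in the deposited table (0.114). Ppargc1b, a coactivator of mitochondrial genes, had a change of -0.69 ± 0.17 (adjusted p = 0.0658) and of -0.29 (0.300) in the deposited table, the largest gap between both processings among these 4 genes.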
